A study of Caenorhabditis elegans with 33 samples.

Results

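The enzymes that remove superoxide and hydrogen peroxide were followed through their transcripts in whole adult Caenorhabditis elegans. The set is 9 genes: the superoxide dismutases sod-1 to sod-5, the catalases ctl-1 to ctl-3 and the peroxiredoxin prdx-2, each taken by its gene name. All 9 were among the 17907 genes of the deposited tables, and all 9 were among the 17354 genes that passed the filter on low counts. The 33 libraries fall into 12 groups, 4 strains by 3 bacterial foods, with 3 libraries per group and 2 in each group of eat-2. Besides wild-type N2 there were mxl-2(tm1516), which carries an allele of the gene for a Max-like protein that pairs with the Myc-family factor MML-1, and eat-2(ad465), which pumps food slowly and is used to model dietary restriction. The fourth strain, eat-2(ad465);mxl-2(tm1516), is called the double mutant here. A strain that carries an allele does so in every tissue. The foods were Escherichia coli HT115 carrying the empty vector (EV), the control, or a construct whose double-stranded RNA targets daf-16 (the FOXO factor downstream of insulin signalling) or pha-4 (a FOXA factor). Every group, controls included, was grown at 16 °C from the first to the last larval stage and at 20 °C after that. From that larval stage on, all received 5-fluorodeoxyuridine to prevent progeny. About 3000 whole hermaphrodites were pooled per library at adult day 2. The populations were synchronised separately, and p-values measure the spread between them. A value is a mean over all tissues of many animals, in which fewer cells of a type and less RNA per cell cannot be told apart.

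Superoxide leaks from electron transport and is made by oxidases. Superoxide dismutases turn it into hydrogen peroxide, and catalases and peroxiredoxins break the peroxide down. In C. elegans sod-1 encodes the main cytosolic copper/zinc dismutase, sod-5 a second cytosolic one and sod-4 an extracellular one, while sod-2 and sod-3 encode the manganese dismutases of mitochondria. CTL-2 is the catalase of peroxisomes, CTL-1 is cytosolic and ctl-3 is known from neurons and muscle. PRDX-2 is a cytosolic thiol peroxidase that thioredoxin recharges. sod-3 is a textbook target of DAF-16, and ctl-1, ctl-2 and sod-5 have also been tied to insulin signalling.

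Library totals ran from 20.2 to 31.5 M counts. The mxl-2 transcript was at 2.79 to 8.32 CPM (library-scaled counts) in the 2 strains that carry tm1516 and at 25.7 to 82.3 CPM in the 2 that do not. The daf-16 transcript fell on daf-16 RNAi over N2, mxl-2 and eat-2 (log2 −0.88, edgeR adjusted p = 0.0076) and in the double mutant (log2 −1.12, edgeR adjusted p = 0.017). It was not called in N2 alone (−1.07, edgeR adjusted p = 0.141) or in mxl-2 alone (−0.91, edgeR adjusted p = 0.167). Nor was it called in eat-2 alone (−0.65), where ranges overlapped, at 116 and 44.9 CPM on EV and 32.4 and 69.6 CPM on daf-16 RNAi. The pha-4 transcript fell on pha-4 RNAi over the first 3 strains (log2 −0.90, edgeR adjusted p = 0.024). In eat-2 alone it came to −0.39 (edgeR adjusted p = 0.66), and replicate 2 on pha-4 RNAi, at 13.6 CPM, lay within the EV libraries at 14.05 and 10.5 CPM. It ran against its labels in the double mutant, at 3.99, 3.27 and 4.22 CPM in the libraries labelled EV and 7.74, 12.8 and 10.8 CPM in those labelled pha-4 RNAi (log2 1.45, edgeR adjusted p = 0.049). Whether these 2 labels are exchanged was not tested. Groups are used as labelled, results that turn on the double mutant's EV libraries are also given with the labels exchanged, and averages of an RNAi response over strains use N2, mxl-2 and eat-2 alone. The double mutant carries library numbers 49 to 57 and the other strains 1 to 27, so that a batch marked by these numbers cannot be told apart from the strain. Replicate 2 of eat-2 on EV and replicate 1 of eat-2 on daf-16 RNAi differ widely from the 1 other library of their groups (chi-square per degree of freedom 630 and 521). That value belongs to the pair and cannot say which of its libraries stands apart. The 2 named had TMM scaling factors of 1.46 and 1.56, against 0.862 and 0.854 in the other library of each group. They are referred to as the eat-2 libraries that stand apart, and called results that rest on eat-2 are given with and without them. A fit without the other library of each pair instead was not run. Sperm transcripts set apart replicate 3 of mxl-2 on EV and replicate 2 of mxl-2 on daf-16 RNAi. The summed CPM of 31 major sperm protein genes was 14.6 and 7.41 in these, against 1569 to 2332 in the other libraries of the 2 groups. On pha-4 RNAi, mxl-2 replicates 1 and 2 were low as well, at 24.2 and 16.4 CPM, against 1045 in replicate 3. Fits without the 2 mxl-2 libraries low in sperm transcripts leave out those on EV and daf-16 RNAi and keep those on pha-4 RNAi.

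prdx-2 was the most abundant of the 9 transcripts and sod-5 the least. In TPM, the length-scaled unit used here to compare genes, prdx-2 averaged 1009 over the 33 libraries, from 599 to 1518, and ranked 150 among all listed genes. sod-1 averaged 286 TPM, with a range of 170 to 386, and sod-2 averaged 175 TPM, with a range of 131 to 295. Both are house-keeping forms of the dismutase. The catalase ctl-2 averaged 76.9 TPM, with ctl-1 at 49.1 and ctl-3 at 23.2. The extracellular dismutase sod-4 averaged 44.0 TPM, sod-3 8.22 TPM with a range of 0.82 to 25.3, and sod-5 1.09 TPM with a range of 0 to 5.30.

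Within each family 1 or 2 genes carried most of the message. sod-1 made up 55.8% and sod-2 33.9% of the summed TPM of the 5 dismutases, followed by sod-4 with 8.56%, sod-3 with 1.57% and sod-5 with 0.212%. ctl-2 made up 51.9% of the summed catalase TPM, ctl-1 32.5% and ctl-3 15.6%. By counts per exon length the shares were 90.8%, 2.64% and 6.59%, so that the order of ctl-1 and ctl-3 depended on the unit. The summed dismutase TPM ranged between groups only from 410 (mxl-2 on daf-16 RNAi) to 632 (the double mutant on EV). The summed catalase TPM ranged from 74.8 (the double mutant on EV) to 215 (mxl-2 on pha-4 RNAi).

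**Figure D1:**
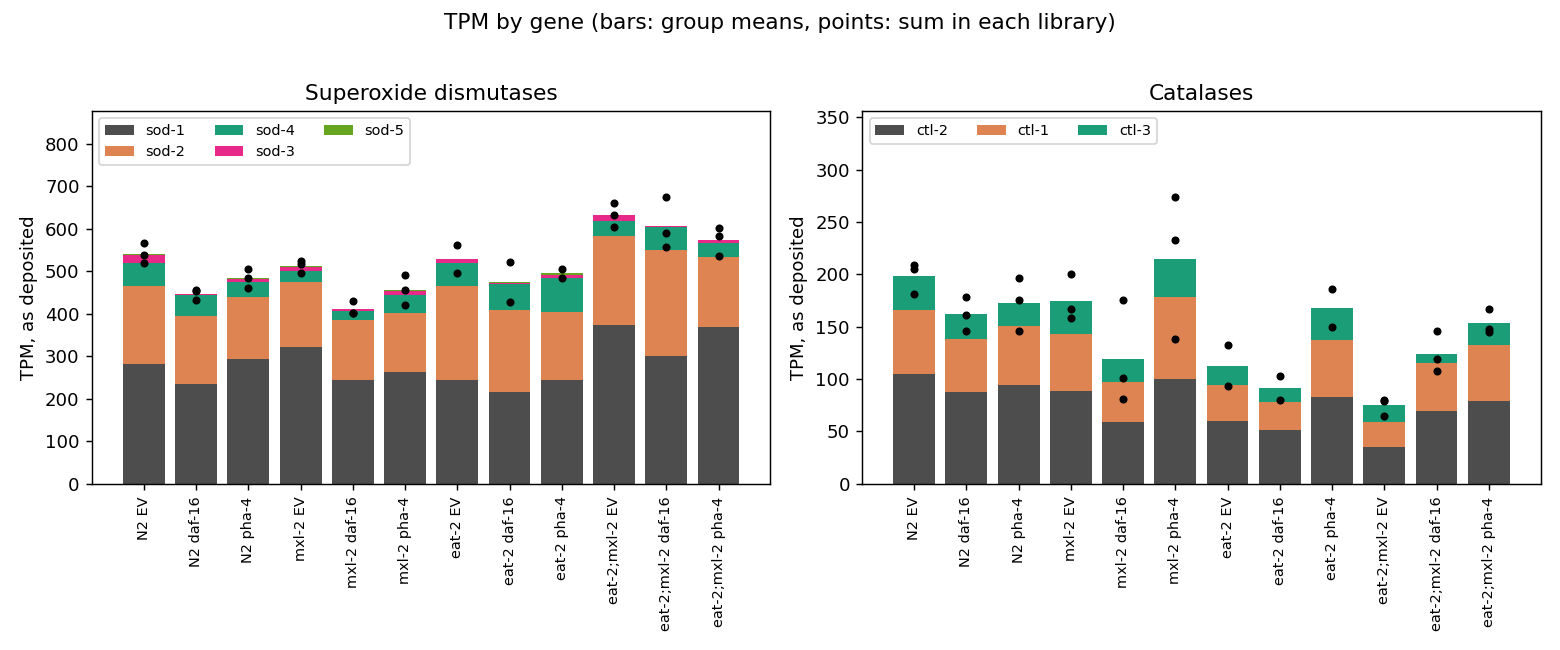
Deposited TPM of the 5 superoxide dismutases (left) and the 3 catalases (right) in each of the 12 groups; bar segments are group means by gene and points are the sum in each library. The dismutase sum stays between 410 and 632 TPM, while the catalase sum is lowest in the double mutant on EV, at 74.8 TPM, against 199 TPM in N2 on EV.

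By the Ensembl release 115 annotation of WBcel235, 6 of the 9 genes lie on chromosome II. The catalases form a cluster on its minus strand: ctl-2 at II:14299556-14302027, ctl-1 at II:14303568-14306260 and ctl-3 at II:14307798-14310779. Gaps of 1540 and 1537 bases separate them, with 0 protein-coding genes between. sod-1 lies at II:6972706-6973887 on the minus strand, and sod-5 (II:4417633-4419130) and prdx-2 (II:5378195-5379631) lie on the plus strand. The mitochondrial pair is split, with sod-2 at I:8434550-8435807 and sod-3 at X:17092753-17094306, both on the plus strand, and sod-4 lies at III:9496884-9500375 on the minus strand. Exons of genes on the opposite strand cover 13.4% of sod-4, 11.8% of sod-1, 10.1% of sod-3, 4.03% of ctl-2 and 2.62% of sod-2. Whether reads were counted by strand is not given in the sources used here, so these 5 genes may hold reads of their partners.

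The counts of ctl-1 and ctl-3 are uncertain for another reason. Relative to counts per exon length, the deposited TPM were 23.3 times (18.8 to 50.1 over libraries) as high for ctl-1 and 4.66 times (4.24 to 8.79) as high for ctl-3, against 1.00 to 1.13 for ctl-2, prdx-2 and the dismutases other than sod-4. Of 14249 genes with a mean count of at least 20, 6 had a higher ratio than ctl-1. The cause was not tested. For the catalase results that turn on these 2 genes, values from TPM stand beside those from counts.

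**Figure D2:**
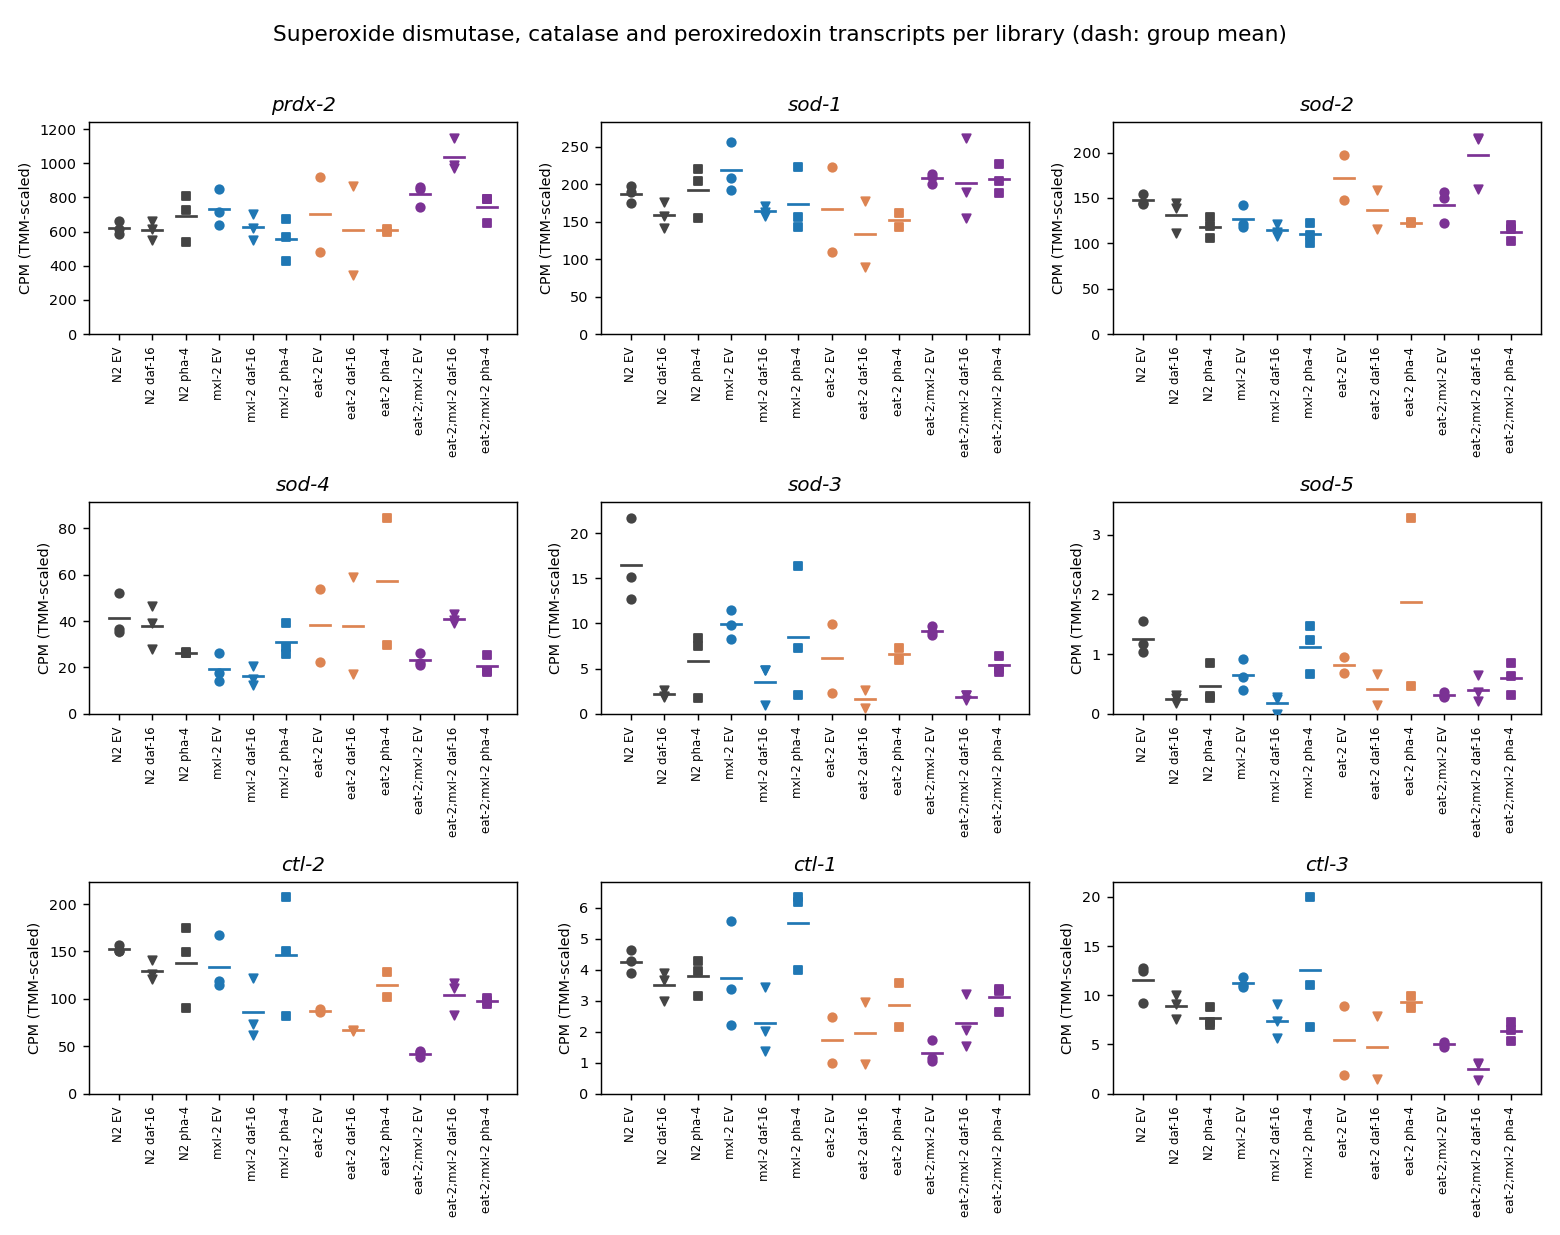
CPM, scaled by library composition, of each of the 9 genes in every library (points) with the group mean (dash), for the 12 groups of strain and food. Each panel has its own linear axis from 0; sod-3 is low in all daf-16 RNAi groups and ctl-2 is lowest in the 3 double-mutant libraries on EV, at 38.3 to 44.9 CPM.

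The cytosolic dismutase sod-1 and the mitochondrial dismutase sod-2 varied least. Their highest and lowest group means differed by 1.64 and 1.78 times in CPM, and all 11 neighbours in the order of group means overlapped in range for both genes. sod-1 was at 198, 190 and 176 CPM in N2 on EV, at 209, 192 and 257 in mxl-2 and at 201, 210 and 214 in the double mutant on EV. The 2 eat-2 libraries on EV were farther apart, at 223 and 110 CPM. sod-1 was not called by edgeR in any test of RNAi within a strain or of strains on EV. Averaged over foods it was higher in the double mutant than in eat-2 (log2 0.45 ± 0.16 SE, edgeR adjusted p = 0.045). That call was lost in 12 of 15 fits that each left out 1 library, and the difference was 0.12 without the 2 eat-2 libraries that stand apart.

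sod-2 was highest in the double mutant on daf-16 RNAi, at 215, 160 and 216 CPM, against 122, 157 and 149 in the same strain on EV and 111, 145 and 139 in N2 on daf-16 RNAi. All 3 of the daf-16 RNAi libraries lay above all 3 of the EV libraries in the double mutant, as held for 28.1% of all genes. The log2 difference of 0.47 ± 0.16 (SE) missed the threshold (edgeR adjusted p = 0.062). It also missed it in all 8 alternatives that keep the labels, at 0.22 to 0.47 (edgeR, DESeq2 or limma adjusted p 0.081 to 0.494). Leaving out replicate 2 of that daf-16 RNAi group, the lowest, brought it to 0.60 and an edgeR adjusted p of 0.020. With the EV and pha-4 RNAi labels exchanged it was called (0.81, edgeR adjusted p = 0.0074). The other 5 fits that left out 1 library did not call it. Over foods, sod-2 was higher in the double mutant than in mxl-2 (log2 0.33 ± 0.094 SE, edgeR adjusted p = 0.011). Without replicate 2 of the double mutant on EV the edgeR adjusted p was 0.060 (log2 0.26), and without replicate 1 of the libraries labelled pha-4 RNAi it was 0.053 (log2 0.27).

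sod-3, the mitochondrial manganese dismutase that DAF-16 drives, was the only dismutase whose fall on daf-16 RNAi passed the test. N2 had 21.7, 12.7 and 15.2 CPM on EV but 2.63, 1.89 and 1.94 CPM when fed the daf-16 construct. In mxl-2 it went from 8.32, 9.87 and 11.5 CPM to 4.85, 0.931 and 4.86 CPM. In eat-2 the levels were 2.31 and 9.95 CPM on EV against 2.59 and 0.662 CPM with the RNAi. The ranges were apart in N2 and mxl-2 and overlapped in eat-2, where EV replicate 1 was as low as the RNAi libraries. Over all genes, ranges lay wholly lower on daf-16 RNAi for 8.89% in N2 and 6.99% in mxl-2.

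Averaged over these 3 strains sod-3 fell by 2.10 on the log2 scale (SE 0.41, edgeR adjusted p = 0.0067). It was the only gene of the 9 that was called in this comparison, where 1.07% of all genes tested were called. All 9 had a negative log2 fold change, with a median of −0.33 against 0.02 over all genes. The sod-3 call was lost without replicate 2 of eat-2 on EV (log2 −1.62, edgeR adjusted p = 0.077) and without replicate 2 of eat-2 on daf-16 RNAi (log2 −1.89, edgeR adjusted p = 0.0501). Leaving out the 2 eat-2 libraries that stand apart also lost it (log2 −2.05, edgeR adjusted p = 0.053), as did a model without the double mutant (log2 −2.09, edgeR adjusted p = 0.075). Over all 10 alternatives the adjusted p ran from 3.5e-05 to 0.075.

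Within N2, mxl-2 or eat-2 alone the difference in sod-3 was not called. In N2, where 0.248% of genes were called, none of the 9 passed the edgeR threshold, and sod-3 came to −2.94 ± 0.68 (SE) with an adjusted p of 0.070. Alternatives put that adjusted p between 0.00086 (only the N2 EV and daf-16 RNAi groups fitted) and 0.379, with 4 of them past the threshold. The 6 fits that left out 1 library gave 0.085 to 0.395. DESeq2 and limma on log2(TPM + 1) each called sod-3 and no other gene of the 9. By edgeR 2 of the 9 had an unadjusted p under 0.05, as did 646 of the 17354 genes tested. In mxl-2, with 0.127% of genes called and none of the 9, the value for sod-3 was −1.48 ± 0.64 (SE, edgeR adjusted p = 0.42). With the sperm covariate it was called (−2.06, edgeR adjusted p = 0.0489), and without the 2 mxl-2 libraries low in sperm transcripts it came to −0.91 (edgeR adjusted p = 0.59). In eat-2, with 0.0115% called and none of the 9, it was −1.90 ± 0.80 (SE, edgeR adjusted p = 1.0). The unadjusted p was under 0.05 for 3 of the 9 genes in mxl-2 and for 1 in eat-2, and DESeq2 called 0 of the 9 in both. Over all genes tested the unadjusted p was under 0.05 for 1622 in mxl-2 and 256 in eat-2.

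In the double mutant sod-3 was at 9.10, 8.73 and 9.70 CPM in the libraries labelled EV and at 2.11, 1.51 and 2.07 CPM on daf-16 RNAi, a fall by 2.27 on the log2 scale (SE 0.66, edgeR adjusted p = 0.034). In that comparison 9.55% of all genes were called, and 2 of the 9. Each of the 6 fits that left out 1 library lost the call, with values of −2.13 to −2.39 and adjusted p of 0.071 to 0.107. A covariate for sperm transcripts also lost it (log2 −1.54, edgeR adjusted p = 0.066), as did the exchange of the EV and pha-4 RNAi labels (log2 −1.49, edgeR adjusted p = 0.137). The other alternatives gave adjusted p from 2.1e-05 upward, all past the threshold. The summed CPM of the sperm genes was 798 to 1076 in the double mutant on EV and 87.1 to 150 on daf-16 RNAi. No difference between strains in the daf-16 RNAi response of sod-3 was called.

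On EV, sod-3 was highest in N2, at 16.5 ± 4.68 CPM (SD, n = 3), above mxl-2 at 9.90 ± 1.60 (SD, n = 3), the double mutant at 9.18 ± 0.490 (SD, n = 3) and eat-2 at 6.13 ± 5.41 (SD, n = 2). Of the 11 other groups only mxl-2 on pha-4 RNAi, at 7.27, 2.07 and 16.3 CPM, reached into the range of N2 on EV. None of these strain differences was called. The double mutant came to −0.85 against N2 (edgeR adjusted p = 0.43), or −1.63 with its EV and pha-4 RNAi labels exchanged (edgeR adjusted p = 0.128). The value for eat-2 was −1.43 (edgeR adjusted p = 0.264). Over foods eat-2 was at −0.55 (edgeR adjusted p = 0.39), and without the 2 eat-2 libraries that stand apart it was called, at −1.48 (edgeR adjusted p = 0.040). In N2, sod-3 made up 3.64% of the dismutase TPM on EV and 0.579% on daf-16 RNAi.

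**Figure D3:**
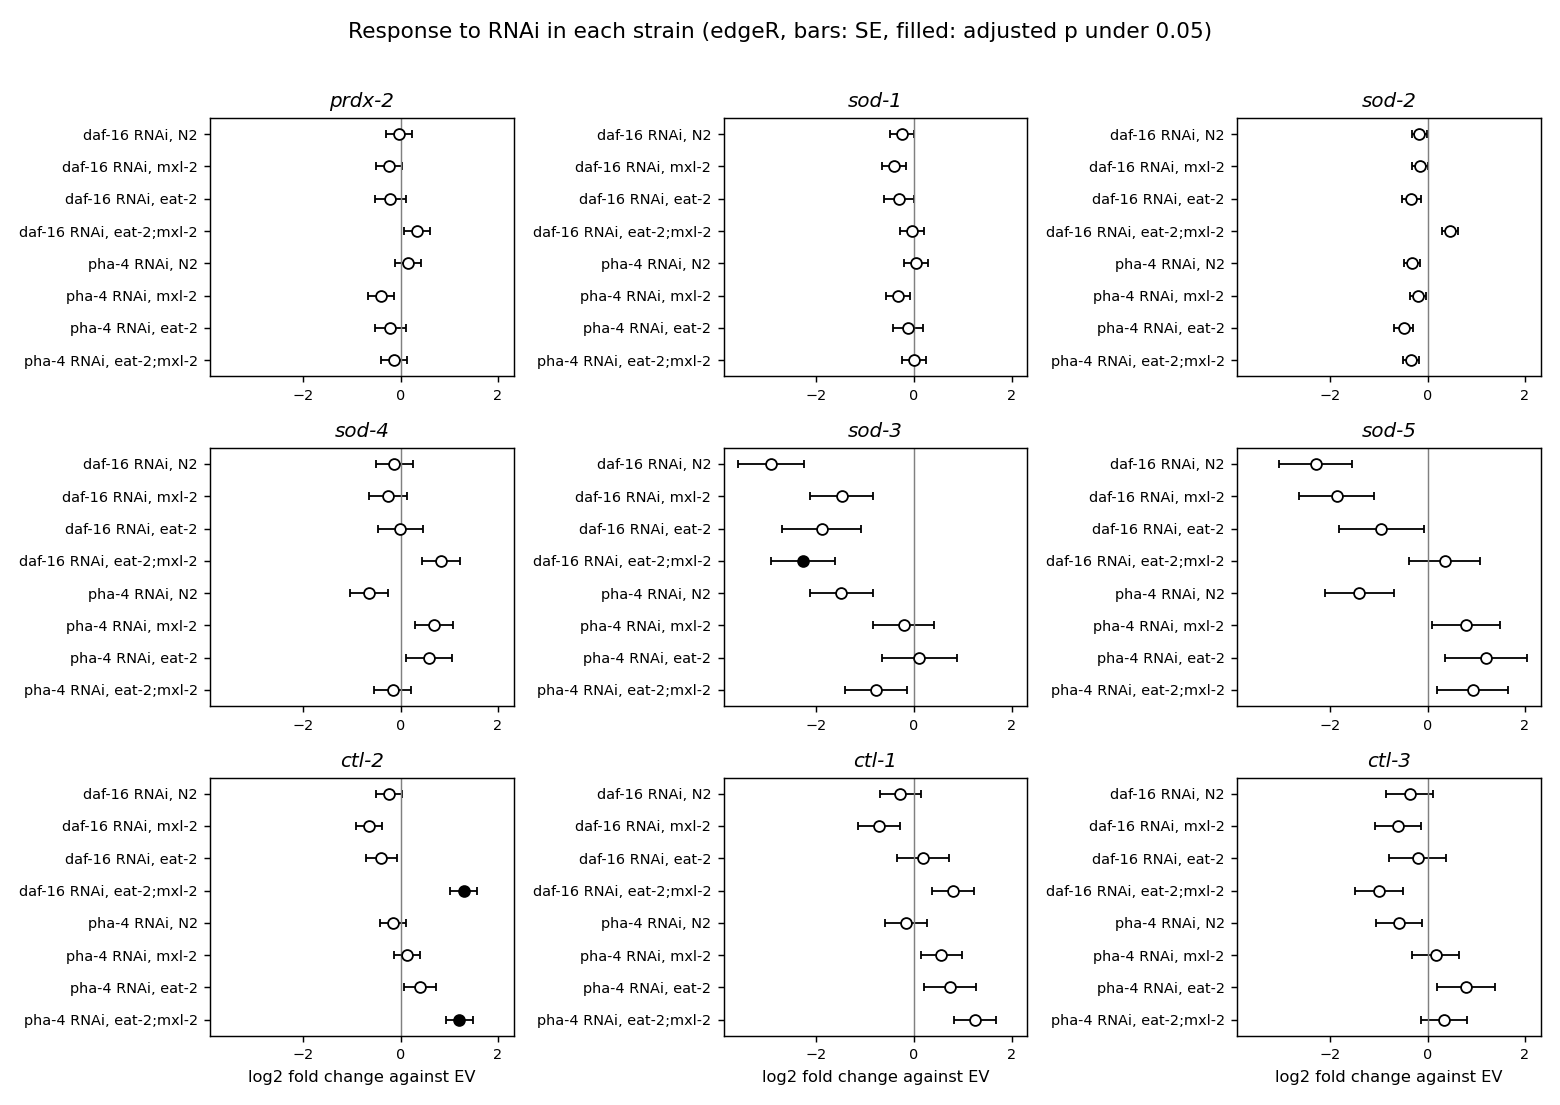
Log2 fold change against EV of each gene on daf-16 RNAi (upper 4 rows of a panel) and pha-4 RNAi (lower 4 rows) in each strain; points are edgeR estimates, bars 1 SE, and filled points have an adjusted p under 0.05. sod-3 lies below 0 on daf-16 RNAi in all 4 strains, from −1.48 to −2.94, and ctl-2 lies above 0 by more than 1 in the double mutant alone, with its libraries as labelled.

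The extracellular dismutase sod-4 had lower values in mxl-2 and the double mutant than in N2 on EV, with no call. It was at 52.1, 35.1 and 36.7 CPM in N2 on EV, at 17.6, 26.3 and 14.04 in mxl-2 and at 21.2, 26.1 and 21.7 in the double mutant. The mxl-2 and double-mutant libraries all lay below those of N2. Over all genes this held for 22.5% in mxl-2 and 29.6% in the double mutant. The eat-2 libraries spanned both levels, at 22.5 and 53.6 CPM on EV and 29.5 and 84.6 on pha-4 RNAi. On EV the difference of mxl-2 from N2 was −1.10 ± 0.39 (SE, edgeR adjusted p = 0.264), and averaged over foods it was −0.69 ± 0.22 (SE, edgeR adjusted p = 0.057). Neither was called among the 9, where over foods 6.75% of all genes were; DESeq2 called the average, as did edgeR without replicate 2 of mxl-2 on EV (−0.79, adjusted p = 0.039) or on daf-16 RNAi (−0.77, adjusted p = 0.034). The double mutant was lower than eat-2 over foods (log2 −0.70 ± 0.24 SE, edgeR adjusted p = 0.041). This call was lost in 10 of 15 fits that left out 1 library, and without the 2 eat-2 libraries that stand apart the difference was −0.12.

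The inducible cytosolic dismutase sod-5 was near the limit of detection, with 0 to 98 reads per library. N2 had 47, 30 and 30 reads on EV against 7, 8 and 4 with daf-16 RNAi, which corresponds to 1.56, 1.18 and 1.03 CPM against 0.259, 0.321 and 0.177. The ranges were apart in N2 and in mxl-2, where 1 daf-16 RNAi library was listed at 0 reads, a value that allows up to 3 reads by counting error alone. Over all genes, ranges lay wholly lower on daf-16 RNAi for 8.89% in N2 and for 6.99% in mxl-2. Averaged over N2, mxl-2 and eat-2 the difference was −1.70 ± 0.46 (SE) and was not called (edgeR adjusted p = 0.087). The alternatives gave 0.011 to 0.322, with 3 of them past the threshold. It was called without replicate 2 of mxl-2 on daf-16 RNAi (−1.87, edgeR adjusted p = 0.042) and without replicate 1 of eat-2 on daf-16 RNAi (−2.19, edgeR adjusted p = 0.040), and without both mxl-2 libraries low in sperm transcripts (−1.89, edgeR adjusted p = 0.045). Its highest value, 98 reads, was in replicate 2 of eat-2 on pha-4 RNAi, the library in which sod-4 was also highest and whose pha-4 transcript was not below that of eat-2 on EV.

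The group means of ctl-2 and ctl-1 were lowest in the double-mutant libraries labelled EV, at 42.3 and 1.31 CPM. Those labelled pha-4 RNAi, whose pha-4 transcript runs against the label, averaged 97.8 and 3.11 CPM. The peroxisomal catalase ctl-2 was at 150, 157 and 151 CPM in N2, at 114.9, 118 and 168 in mxl-2, at 88.9 and 85.9 in eat-2 and at 43.8, 38.3 and 44.9 in the double mutant. The 3 double-mutant libraries lay below all other libraries of the series. ctl-1, the cytosolic catalase, was at 3.88, 4.27 and 4.62 CPM in N2 and at 1.06, 1.14 and 1.73 in the double mutant, or at 56.5, 62.2 and 65.2 TPM against 26.9, 19.1 and 27.6. ctl-3 was at 9.26, 12.8 and 12.4 CPM in N2 and at 5.02, 4.78 and 5.25 in the double mutant, or at 25.4, 37.8 and 34.9 TPM against 16.3, 14.6 and 16.1. None of the 3 catalases overlapped between these groups.

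Against N2 on EV, ctl-2 was lower in the double mutant by 1.85 on the log2 scale: the value was −1.85 ± 0.28 (SE, edgeR adjusted p = 0.00011). The same comparison gave −1.70 ± 0.44 (SE, edgeR adjusted p = 0.013) for ctl-1. These were the 2 genes called of the 9, in a comparison that called 12.1% of all genes; ctl-3 at −1.20 ± 0.48 (SE, edgeR adjusted p = 0.11) was not called. In 6 of the 9 genes the double mutant's CPM lay wholly below those of N2 and in 2 wholly above, and over all genes these shares were 29.6% and 30.2%. The ctl-2 call stood in all 8 alternatives that keep the labels (−1.57 to −1.86) and in the 6 fits that left out 1 library, with a highest adjusted p of 0.0022. That of ctl-1 stood in these 8 but was lost without replicate 1 (log2 −1.52, edgeR adjusted p = 0.076) or replicate 2 (log2 −1.57, edgeR adjusted p = 0.072) of the double mutant. In TPM, where the median of all genes moved from −0.05 to 0.12, ctl-2 gave −1.57 and ctl-1 −1.30 (limma on log2(TPM + 1), adjusted p = 9.9e-05 and 0.0083), and ctl-3 −0.997 without a call (limma adjusted p = 0.150).

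These differences depended on the EV label of the double mutant. With its EV and pha-4 RNAi labels exchanged, ctl-2 came to −0.64 ± 0.27 (SE, edgeR adjusted p = 0.150) and ctl-1 to −0.45 (edgeR adjusted p = 0.54) against N2, and neither was called. Against mxl-2 the exchange gave −0.45 for ctl-2 (edgeR adjusted p = 0.45) and −0.26 for ctl-1 (edgeR adjusted p = 0.84). Against eat-2 it turned the sign of ctl-2, to 0.16 (edgeR adjusted p = 0.74). The dismutase sod-2, at −0.27 as labelled, was then the gene called (−0.61, edgeR adjusted p = 0.037). Averages over the 3 foods are the same under either labelling.

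As labelled, the double mutant was also below each single mutant. Against mxl-2 on EV, where 7.86% of genes were called, ctl-2 differed by −1.66 ± 0.27 (SE, edgeR adjusted p = 0.00048) and ctl-1 by −1.51 ± 0.44 (SE, edgeR adjusted p = 0.034). In TPM ctl-1 was at 48.5, 47.8 and 68.5 in mxl-2 and gave −1.13 (limma adjusted p = 0.025). The ctl-2 call stood in the 8 alternatives other than the exchange and in the 6 left-out fits. That of ctl-1 by edgeR was lost without mxl-2 replicate 1 (−1.57, adjusted p = 0.061), mxl-2 replicate 3 (−1.09, adjusted p = 0.184), double-mutant replicate 1 (−1.41, adjusted p = 0.121) and double-mutant replicate 2 (−1.46, adjusted p = 0.125). Without the 2 mxl-2 libraries low in sperm transcripts ctl-2 stayed called (−1.46, edgeR adjusted p = 0.0012) and ctl-1 did not (−1.10, edgeR adjusted p = 0.132). Against eat-2 on EV, where 18.4% of genes were called, ctl-2 was the only gene called of the 9 (−1.05 ± 0.29 SE, edgeR adjusted p = 0.019). That edgeR call was lost without eat-2 replicate 2 (−1.15, adjusted p = 0.088), without double-mutant replicate 2 (−1.004, adjusted p = 0.054), with the sperm covariate (−0.92, adjusted p = 0.074) and without both eat-2 libraries that stand apart (−1.004, adjusted p = 0.089). Over its 9 alternatives other than the exchange the adjusted p ran from 0.0089 to 0.089.

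Neither single mutant gave a call against N2 on EV among the 9 genes. For eat-2, with 0.789% of genes called, ctl-2 came to −0.80 ± 0.31 (SE) and ctl-1 to −1.31 ± 0.50 (SE), each with an edgeR adjusted p of 0.142. The unadjusted edgeR p was under 0.05 for these 2 of the 9 and for 3699 of the 17354 genes tested. DESeq2 called 1 of the 9, and its share of all genes is not given here. In TPM ctl-1 was at 49.3 and 19.5 in eat-2 and gave −0.95 (limma adjusted p = 0.233). For mxl-2, with 0.0288% of genes called, ctl-2 came to −0.19. The unadjusted p was under 0.05 for 1 of the 9, sod-4, and for 2296 of all genes tested. DESeq2 called 0 of the 9. Set against each other, the eat-2 effect on ctl-2 in the mxl-2 background and in the wild-type one differed by −0.85 ± 0.40 (SE, edgeR adjusted p = 0.24; 0.35 and an adjusted p of 0.81 with the labels exchanged), in a comparison that called 1.27% of genes and 0 of the 9. There 1 of the 9 and 3322 of all genes tested had an unadjusted p under 0.05, and DESeq2 called 0 of the 9. Averaged over the 3 foods, eat-2 was below N2 in ctl-2 (−0.67 ± 0.18 SE, edgeR adjusted p = 0.017) and ctl-1 (−0.86 ± 0.28 SE, edgeR adjusted p = 0.043), where 14.6% of genes were called. The ctl-2 call by edgeR was lost without replicate 2 of eat-2 on pha-4 RNAi (−0.59, adjusted p = 0.055), and with EV left out (−0.61, adjusted p = 0.194). That of ctl-1 was lost in 12 of 15 left-out fits (highest edgeR adjusted p 0.155), on the TPM scale (−0.67, limma adjusted p = 0.061) and with EV left out (−0.63, edgeR adjusted p = 0.346). Without the 2 eat-2 libraries that stand apart ctl-2 stayed called (−0.68, edgeR adjusted p = 0.035) and ctl-1 did not (−0.50, edgeR adjusted p = 0.171).

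**Figure D4:**
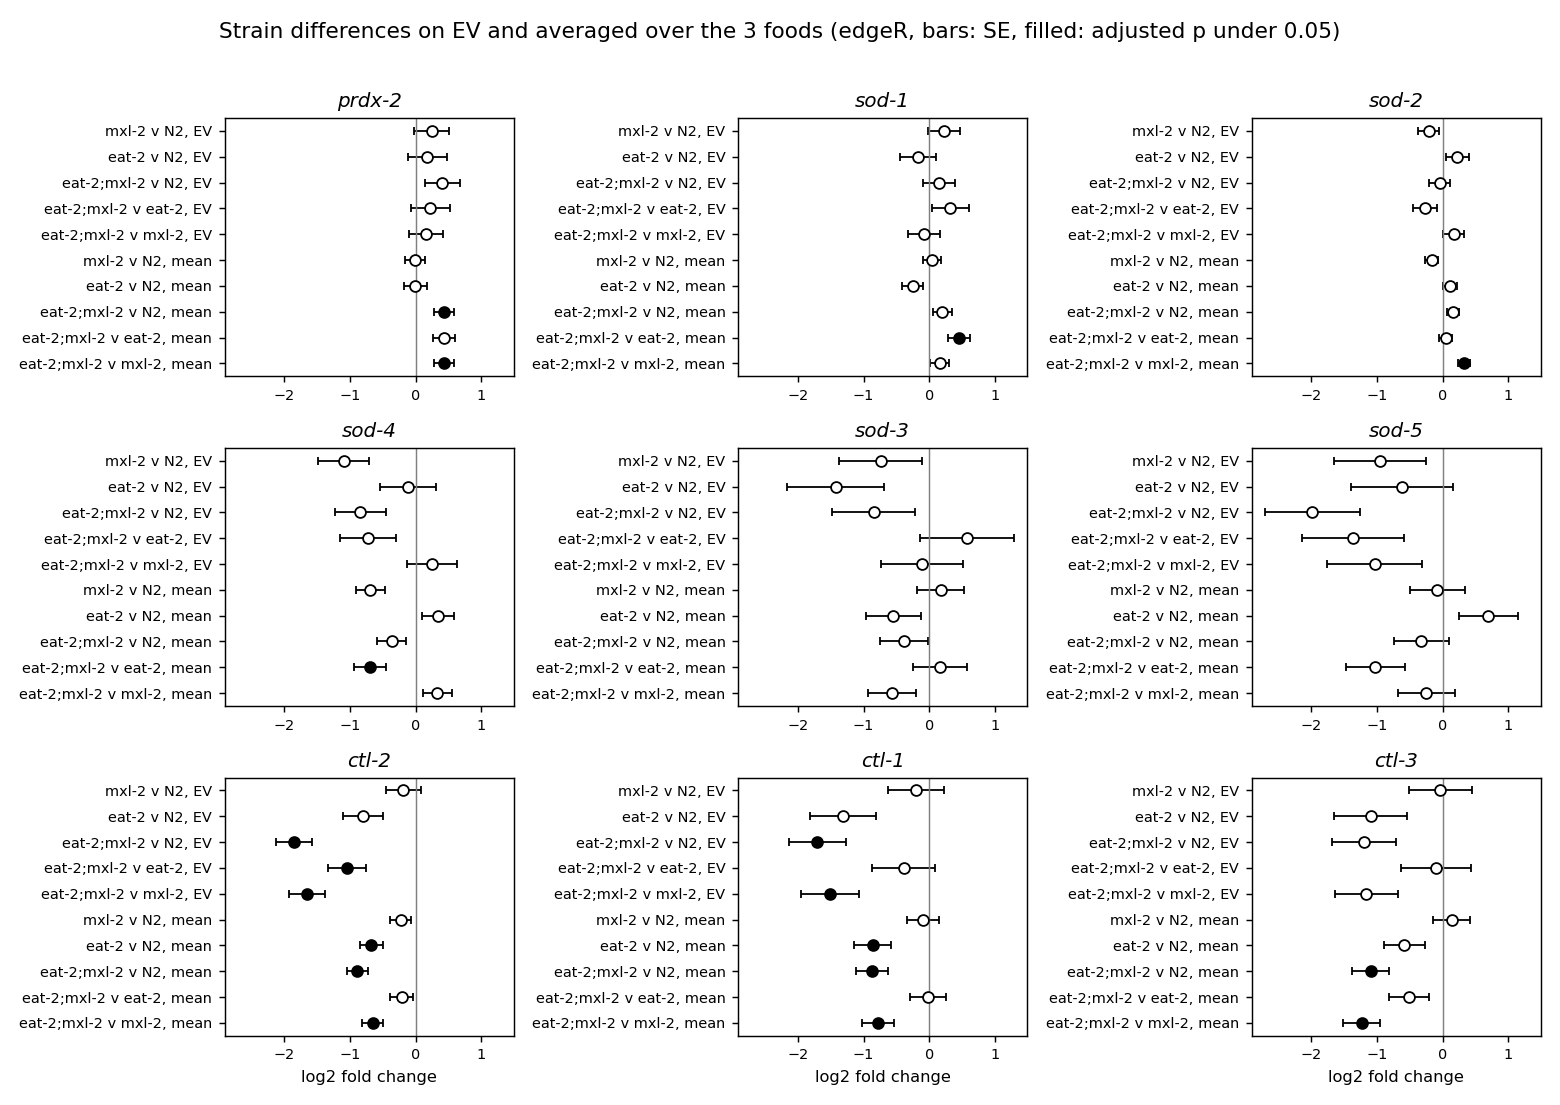
Log2 differences between strains on EV (upper 5 rows of a panel) and averaged over the 3 foods (lower 5 rows, marked mean) for each gene; points are edgeR estimates, bars 1 SE, and filled points have an adjusted p under 0.05. The double mutant lies below N2 in ctl-2 and ctl-1 on EV, at −1.85 and −1.70, and above N2 in prdx-2 averaged over foods, at 0.42.

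Over the 3 foods the double mutant was below N2 in all 3 catalases: ctl-3 by −1.10 ± 0.28 (SE, edgeR adjusted p = 0.0053), ctl-2 by −0.89 ± 0.16 (SE, edgeR adjusted p = 0.00019) and ctl-1 by −0.87 ± 0.25 (SE, edgeR adjusted p = 0.011). With prdx-2 these were 4 called of 9, where 25.4% of all genes were called. The 3 catalases were also below mxl-2, where 5 of the 9 and 29.8% of all genes were called: ctl-3 gave −1.23 (edgeR adjusted p = 0.0020), ctl-2 −0.66 (edgeR adjusted p = 0.0027) and ctl-1 −0.78 (edgeR adjusted p = 0.021). Without replicate 3 of mxl-2 on EV, ctl-1 came to −0.64 (edgeR adjusted p = 0.053). Without the mxl-2 libraries low in sperm transcripts on EV and daf-16 RNAi it came to −0.50 (edgeR adjusted p = 0.103). The mxl-2 libraries low in sperm transcripts on pha-4 RNAi were kept in that fit. With the EV libraries left out of the edgeR average, ctl-2 came to −0.40 against N2 (adjusted p = 0.144) and −0.15 against mxl-2 (adjusted p = 0.56), and ctl-1 to −0.46 against N2 (adjusted p = 0.30). The averages for these 2 genes thus rested on the libraries labelled EV, and ctl-3 was called without them. With the double mutant's EV and pha-4 RNAi labels exchanged, other libraries would be left out, and that fit was not run. On the TPM scale ctl-3 was likewise below N2 (−0.80, limma adjusted p = 0.026) and mxl-2 (−0.94, limma adjusted p = 0.0090), and ctl-1 was called against N2 (−0.50, limma adjusted p = 0.047) but not against mxl-2 (−0.43, limma adjusted p = 0.084).

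Markers of tissues also differed between these groups, not all in 1 direction. The summed CPM of 6 intestinal genes, none at 0, was 31526 to 50676 in N2 on EV, 9832 to 18043 in the double mutant on EV and 23890 to 42525 in the double mutant on daf-16 RNAi. The yolk genes vit-2 and vit-6 held 96.1% to 99.9% of that sum in every library. In the double mutant against N2 on EV they came to −1.81 (edgeR adjusted p = 0.066) and −1.32 (edgeR adjusted p = 0.208). The only called gene of the 6, the peptide transporter gene pept-1, was higher (1.93, edgeR adjusted p = 0.027), and elt-2 and ifb-2 came to 0.00 and 0.24. The intestinal sum was 49916 to 106493 CPM in mxl-2 on EV and 6334 to 39498 in eat-2 on EV. The 4 genes of body wall muscle, none at 0, summed to 1981 to 3024 CPM in N2 on EV, 545 to 585 in eat-2 and 1148 to 1171 in the double mutant, where they went to 528 to 722 on daf-16 RNAi. The 4 neuronal genes, also with none at 0, summed to 153 to 163 CPM in N2 on EV and 108 to 123 in the double mutant. The part of these tissues in the catalase values was not tested.

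On daf-16 RNAi, ctl-2 rose in the double mutant as labelled, from 43.8, 38.3 and 44.9 CPM in the libraries labelled EV to 83.2, 111 and 117. The 2 groups did not overlap, and the log2 difference was 1.29 ± 0.27 (SE, edgeR adjusted p = 0.0059). The edgeR call was lost without replicate 2 on EV (1.15, adjusted p = 0.058), and stood in the other 5 left-out fits and in all 8 alternatives that keep the labels (adjusted p 0.00061 to 0.017). With the EV and pha-4 RNAi labels exchanged the control would be at 94.99, 101 and 97.3 CPM, and the difference was 0.087 ± 0.27 (SE, edgeR adjusted p = 0.86), without a call. Sperm transcripts also differed between the groups as labelled, at 798 to 1076 CPM on EV and 87.1 to 150 on daf-16 RNAi, and their part was not tested. The raised level was still below N2 on daf-16 RNAi in each library, where ctl-2 was at 126, 141 and 121 CPM. ctl-1 went from 1.06 to 1.73 CPM on EV to 1.55 to 3.21 CPM (0.80, edgeR adjusted p = 0.206), and ctl-3 from 4.78 to 5.25 CPM to 1.39 to 3.14 CPM (−0.99, edgeR adjusted p = 0.159). In TPM, ctl-1 was at 39.3, 42.8 and 53.2 and ctl-3 at 4.50, 14.5 and 9.25 on daf-16 RNAi. These 2 neighbours were not called, and their values had opposite signs. In 4 of the 9 genes the daf-16 RNAi libraries lay wholly above EV and in 2 wholly below, against 28.1% and 22.4% over all genes.

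The means of ctl-2 on daf-16 RNAi in the other 3 strains were below those on EV, with no call. N2 went from 150 to 157 CPM on EV to 121 to 141 CPM, mxl-2 from 114.9 to 168 to 62.3, 122 and 73.6, and eat-2 from 88.9 and 85.9 to 65.8 and 67.5. The mean over these 3 strains was −0.42 (edgeR adjusted p = 0.447; 0.312 to 1.00 under the alternatives). In mxl-2 the value was −0.64 (edgeR adjusted p = 0.38), and it was called only without replicate 2 on daf-16 RNAi (−0.98, adjusted p = 0.039), the library at 122 CPM and low in sperm transcripts. Without that library and replicate 3 on EV it came to −0.78 (edgeR adjusted p = 0.152). The response in the double mutant exceeded that in mxl-2 by 1.93 ± 0.38 (SE, edgeR adjusted p = 0.0048), a comparison that called 6.97% of genes and 1 of the 9. With the double mutant's labels exchanged it came to 0.72 (edgeR adjusted p = 0.30), and without the 2 mxl-2 libraries low in sperm transcripts to 2.08 (edgeR adjusted p = 0.00092). As labelled, it exceeded that in N2 by 1.54 ± 0.38 (SE, edgeR adjusted p = 0.059), where 0.651% of genes and 0 of the 9 were called, and that in eat-2 by 1.68 ± 0.43 (SE, edgeR adjusted p = 0.096), where 0.225% and 0 of the 9 were. DESeq2 called ctl-2 in both, and the unadjusted p was under 0.05 for 3 and 2 of the 9, against 3053 and 2596 of the 17354 genes tested. Without replicate 1 of eat-2 on EV or on daf-16 RNAi the difference from eat-2 was called (1.58 and 1.64, edgeR adjusted p = 0.045 and 0.047). With the labels exchanged the differences from N2 and eat-2 were 0.33 and 0.48 (edgeR adjusted p = 0.65 and 0.66).

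The libraries labelled pha-4 RNAi in the double mutant, whose pha-4 transcript runs against that label, gave a like value for ctl-2. They were at 94.99, 101 and 97.3 CPM, all above those labelled EV, as held for 28.9% of all genes. The log2 difference in ctl-2 was 1.21 ± 0.27 (SE, edgeR adjusted p = 0.021). ctl-2 was the 1 gene called of the 9 in a comparison that called 1.49% of all genes. All 6 fits that left out 1 library lost the call, at 1.15 to 1.24 and adjusted p of 0.054 to 0.132, and all 8 alternatives kept it (highest adjusted p 0.035). ctl-1 went from 26.9, 19.1 and 27.6 TPM to 50.0, 60.8 and 50.7 TPM (edgeR on counts 1.25 ± 0.44 SE, adjusted p = 0.159). Both contrasts of the double mutant share the same 3 libraries labelled EV, in which ctl-2 was at its lowest.

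Elsewhere pha-4 RNAi gave no call among the 9. The percentages of all genes called were 0.323% in N2, 0.887% in mxl-2, 1.17% in eat-2 and 4.32% averaged over the 3 strains. sod-2 came nearest: it was at 155, 144 and 144 CPM on EV and 105 to 129 on pha-4 RNAi in N2, at 118, 121 and 142 against 100, 110 and 123 in mxl-2, and at 148 and 197 against 123 and 123 in eat-2. The ranges were apart in N2 and eat-2, where 17.1% and 15.8% of all genes lay wholly below EV. The average was −0.34 ± 0.10 (SE, edgeR adjusted p = 0.058), and the alternatives gave 0.0059 to 0.268, with 5 past the threshold, DESeq2 among them. It was called without replicate 2 of mxl-2 on pha-4 RNAi (−0.38, edgeR adjusted p = 0.042) and without replicate 1 of eat-2 on EV (−0.46, edgeR adjusted p = 0.010). It was the 1 gene of the 9 with an unadjusted p under 0.05 in that average, as had 2974 of the 17354 genes tested. Of the 9 genes, 5 lay wholly below EV in N2, against 17.1% of all genes. sod-3 was among them, at 7.52, 8.34 and 1.80 CPM (−1.49, edgeR adjusted p = 0.40). By single strains, the number of the 9 with an unadjusted p under 0.05 was 1 in N2, 0 in mxl-2 and 1 in eat-2. Over all genes tested that number was 1800 in N2, 1800 in mxl-2 and 3180 in eat-2. DESeq2 gave 0 calls among the 9 in each.

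The peroxiredoxin prdx-2 was at its highest in the double mutant on daf-16 RNAi, at 989, 1150 and 975 CPM, above every library of the next group, the double mutant on EV at 742, 852 and 863 CPM. Over all genes, 28.1% lay wholly above EV on daf-16 RNAi in that strain. N2 had 614, 661 and 585 CPM on EV and 552 to 663 on daf-16 RNAi. The eat-2 libraries ran from 345 to 921 CPM. No contrast of RNAi with EV was called for prdx-2 in any strain, with log2 values from −0.40 to 0.34.

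Averaged over foods, prdx-2 was higher in the double mutant than in N2 (0.42 ± 0.15 SE, edgeR adjusted p = 0.043) and mxl-2 (0.43 ± 0.15 SE, edgeR adjusted p = 0.035), with 0.43 but no call against eat-2 (edgeR adjusted p = 0.073). Without the 2 eat-2 libraries that stand apart the last was 0.069 (edgeR adjusted p = 0.76). In the comparison with eat-2, 23% of all genes and 2 of the 9 were called. Left-out fits lost the N2 call in 14 of 18 cases (highest adjusted p 0.081) and the mxl-2 call in 12 of 18 (highest adjusted p 0.087). In edgeR the N2 call was also lost with the sperm covariate (adjusted p = 0.051), a replicate block (adjusted p = 0.059) and EV left out (adjusted p = 0.115), and the mxl-2 call with RLE scaling (adjusted p = 0.052) and without a filter (adjusted p = 0.054). On the TPM scale the differences were larger, at 0.59, 0.61 and 0.58 (limma, adjusted p = 0.00025, 0.00015 and 0.0018). On EV alone it was 0.40 (edgeR adjusted p = 0.364), and 0.65 in TPM, where it was called (limma adjusted p = 0.021). Averaged over foods, the sign of prdx-2 in the double mutant was opposite to that of the catalases. A link between them was not tested.

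Other redox genes, taken from lists chosen with earlier results of these data known, were set beside the 9. In the double mutant against N2 on EV, 4 of 11 peroxins, which build peroxisomes, were called lower and none higher, against 7.15% and 4.96% of all genes, with prx-11 at −1.90 (edgeR adjusted p = 0.0067) and prx-1 at −1.02 (edgeR adjusted p = 0.013). Their median was −0.48 against −0.05 over all genes. On daf-16 RNAi in the double mutant 4 of 11 peroxins were called higher and none lower, against 6.75% and 2.81% of all genes, among them prx-3 at 1.25 (edgeR adjusted p = 0.014) and prx-11 at 1.75 (edgeR adjusted p = 0.018). Both comparisons share the libraries labelled EV. With the EV and pha-4 RNAi labels exchanged, prx-11 came to −0.85 (edgeR adjusted p = 0.248) in the first and 0.70 (edgeR adjusted p = 0.31) in the second. In the first, 0 of the 11 peroxins were then called, with a median of −0.25, against 3.81% of all genes lower and 2.84% higher. In the second, 1 was called higher and 0 lower, against 5.53% and 4.95% of all genes.

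Of 11 glutathione genes, the peroxidase gene gpx-8 was higher in the double mutant than in N2 on EV (3.52, edgeR adjusted p = 0.00024). Another, gpx-7, was lower (−2.70, edgeR adjusted p = 0.0015). In that comparison 4.96% of all genes were called higher and 7.15% lower. gpx-7 rose on daf-16 RNAi in the double mutant (2.56, edgeR adjusted p = 0.0053), where 6.75% of all genes were called higher. With the labels exchanged gpx-8 stayed called against N2 (2.65, edgeR adjusted p = 0.0053) and gpx-7 did not (−0.70, edgeR adjusted p = 0.42). Of 16 tested thioredoxin, peroxiredoxin and methionine sulfoxide reductase genes besides prdx-2, 1 was lower in the double mutant on EV: trx-2, for mitochondrial thioredoxin, at −0.59 (edgeR adjusted p = 0.044). Of 8 genes that make or use oxidants none was called there, where 12.1% of all genes were called in either direction.

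Other targets of DAF-16 set the fall of sod-3 in context. Of 11, 8 fell on daf-16 RNAi averaged over N2, mxl-2 and eat-2, against 0.974% of all genes, with a median of −2.10 against 0.02 over all genes, among them the metallothionein gene mtl-1 (−5.07, edgeR adjusted p = 1.9e-06) and nnt-1, for a mitochondrial transhydrogenase (−2.58, edgeR adjusted p = 2.1e-05). None of the glutathione, thioredoxin, peroxin or oxidant-producing genes was called in that average. In the double mutant against N2 on EV, 9 of the 11 were called lower, against 7.15% of all genes (7 with the labels exchanged, against 3.81%). As labelled, mtl-1 came to −4.88 (edgeR adjusted p = 0.00022) and the glyoxylate enzyme gene icl-1 to −2.55 (edgeR adjusted p = 0.00015). sod-3 came to −0.85 as labelled and to −1.63 with the labels exchanged (edgeR adjusted p = 0.128), without a call in either.

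The genes whose log2 CPM followed each of the 9 most closely over the 33 libraries, among 8953 with a symbol, are given with Pearson's r as a description. The 33 libraries share strains and foods, and may share batches, which the labels do not name. For sod-1 these were par-5 (r = 0.83) and fntb-1 (0.82), and for sod-2 cyn-3 (0.95) and nuo-3 (0.93). sod-3 was closest to lec-4 (0.86) and lips-17 (0.83), sod-4 to tag-196 (0.92) and nlp-68 (0.91), and sod-5 to pals-27 (0.81) and mtl-1 (0.76). The catalases were closest to different genes: ctl-1 to vit-2 (0.87) and ztf-13 (0.85), ctl-2 to mig-1 (0.90) and nhr-79 (0.87), and ctl-3 to clp-1 (0.93) and abcf-2 (0.93). prdx-2 was closest to rsp-5 (0.88) and cyn-7 (0.87). Among the 9, ctl-1 and ctl-2 had an r of 0.81 (0.56 within groups) and sod-1 and prdx-2 one of 0.80 (0.92 within groups).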

How the data were processed

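The authors deposited whole-number read counts per gene, not normalised, and a matching table of TPM values, with 17907 genes and 33 libraries in each. Polyadenylated RNA was sequenced as single reads from a stranded kit, per the labels' protocols. The submitters' processing notes name FastQC, Trimmomatic, STAR 2.4.2a, RSEM 1.2.23, featureCounts 1.4.6-p5 and WBcel235, with no order. The deposited TPM columns lack 1.24% to 9.78% of their full sum, and the highest count of every listed gene is at least 10.

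Counts were tested with edgeR 4.0.16 (R 4.3.3) in 1 quasi-likelihood model of 12 group means, with TMM scaling (factors 0.782 to 1.56) and filterByExpr, which left out 0.00501% of the counts. P-values were adjusted by Benjamini-Hochberg over 17354 genes in each of 31 comparisons, and a gene was called under 0.05. CPM are TMM-scaled, with a prior count of 2 on the log2 scale. Depth was 20.2 to 31.5 M counts (median 28.0 M). No molecular identifiers are named, so that limits from counts cover counting error only. No pair of replicates was alike within sampling noise (chi-square per degree of freedom 9.95 to 630 over 30 pairs). Coordinates come from Ensembl 115, which holds all 17907 identifiers.

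The 9 genes, the lists and the tests were chosen with earlier results of these data known. All 9 are described. A related list of 8 regulators was also tested and is not described here. Each other related list is given by its counts, with up to 3 called genes of smallest p. Each of the 9 is given with the 2 genes of highest correlation. DESeq2 1.42.0, limma 3.58.1 on log2(TPM + 1), other filters and left-out libraries were tried as alternatives. Another 4 differences of responses, between the double mutant and N2 or mxl-2, were added after the data were seen. Exchanged EV and pha-4 RNAi labels of the double mutant, and fits without library pairs that stand apart, were also tried after the data were seen. The methods were tested on simulated data. Sequences shared between the catalases or dismutases were not analysed here.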

Additional observations from a re-analysis of the deposited data

Results flagged for a closer look

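The response of ctl-2 to daf-16 RNAi differed between the double mutant and mxl-2 by 1.93 on the log2 scale (SE 0.38, edgeR adjusted p = 0.0048). This difference of 2 responses was tested directly, in a comparison added after the data were seen. ctl-2 rose in the double mutant, in 3 of 3 libraries above those labelled EV, and came to −0.64 in mxl-2. It was called in all 7 alternatives that keep the labels (1.61 to 1.92, highest adjusted p 0.0099) and in all 12 fits that left out 1 library (1.74 to 2.27, highest adjusted p 0.021). The summed CPM of 6 intestinal genes, nearly all from vit-2 and vit-6, went from 9832 to 18043 on EV to 23890 to 42525 on daf-16 RNAi in the double mutant, and from 49916 to 106493 to 25704 to 93118 in mxl-2. Sperm transcripts went from 798 to 1076 CPM to 87.1 to 150 in the double mutant, and spanned 14.6 to 2266 and 7.41 to 2332 CPM in mxl-2. The part of these transcripts in the result was not tested. With the EV and pha-4 RNAi labels of the double mutant exchanged, since its pha-4 transcript runs against them, the difference was 0.72 (edgeR adjusted p = 0.30) and was not called.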

How the results depend on the processing

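Of 287 counts of called genes under other settings, 237 were within 1.5 times the main count and 50 were not, and so were 249 and 62 of 311 fits that left out 1 library. All were counts of 0 to 7 of the 9 genes. Most stand here without the share of all genes called under that setting, so they are not results about the 9 in particular. The EV and pha-4 RNAi labels of the double mutant were also exchanged, chosen after seeing the data. The count was then 0 against N2 on EV (6.64% of all genes called) and 0 against mxl-2 on EV (2.31%). For daf-16 RNAi in the double mutant it was 1 (10.5%), and for its difference from mxl-2 it was 0 (0.617%). Against eat-2 on EV it stayed at 1 (7.85%), but the gene called was sod-2 (−0.61, edgeR adjusted p = 0.037), at −0.27 as labelled. The exchange turned ctl-2 to 0.16 against eat-2 on EV and to 0.35 in the difference of the eat-2 effect. By construction the sign of each pha-4 RNAi value of the double mutant turns too. The fit without the 2 mxl-2 libraries low in sperm transcripts on EV and daf-16 RNAi was also chosen after seeing the data. There the count was 1 for the double mutant against mxl-2 on EV (8.02% of all genes called) and 2 for daf-16 RNAi over strains (2.33%). One other value changed sign: ctl-2 on daf-16 RNAi went from −0.42 over 3 strains to 0.0061 with the double mutant added, where its own response is 1.29. Fitting only the groups compared, done for the comparisons of 2 groups, raised the count to 7 for the double mutant against N2 on EV, to 2 for daf-16 RNAi in N2 and to 4 each for daf-16 RNAi and pha-4 RNAi in the double mutant. There sod-5 in mxl-2 on daf-16 RNAi did not pass the filter and has no value. The sperm covariate gave 1 for eat-2 against N2 on EV, daf-16 RNAi in N2, in mxl-2 and in the double mutant, pha-4 RNAi over strains, the double mutant against eat-2 over foods, and the difference of the daf-16 RNAi response between the double mutant and N2; it gave 0 for the double mutant against eat-2 on EV and 2 for daf-16 RNAi over strains. DESeq2 gave 1 for eat-2 against N2 on EV, daf-16 RNAi in N2, pha-4 RNAi over strains, mxl-2 against N2 over foods, and the differences of the double mutant from eat-2 and N2 on daf-16 RNAi and from N2 on pha-4 RNAi, and 2 for daf-16 RNAi over strains. limma on TPM gave 2 for the double mutant against eat-2 on EV and 1 for the pha-4 RNAi difference from N2 with both pseudocounts. With log2(TPM + 1) it gave 1 for daf-16 RNAi in N2 and for eat-2 against N2 over foods, and with log2(TPM + 0.1) 2 for daf-16 RNAi over strains. RLE scaling, no filter and all 4 strains averaged each gave 1 for pha-4 RNAi over strains, and no filter gave 1 for the double mutant against eat-2 over foods. Leaving EV out of the averages over foods gave 0 for eat-2 against N2, and for the double mutant 1 against N2, 0 against eat-2 and 3 against mxl-2. The fit without the 2 eat-2 libraries that stand apart keeps 1 library in each of their groups, so effect sizes are given here. In it ctl-2 came to −1.004 for the double mutant against eat-2 on EV, and sod-3 to −2.05 for daf-16 RNAi over strains. Over foods, ctl-3 in the double mutant came to −1.07 against eat-2, from −0.51 with all libraries. In the difference of pha-4 RNAi between eat-2 and N2, sod-4 came to 1.94, from 1.23. Without the double mutant the count was 0 for daf-16 RNAi over strains and 0 for eat-2 against N2 over foods. The causes were not tested.

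Leaving out 1 library gave, on EV, 1 to 2 called genes for the double mutant against N2, 0 to 1 against eat-2 and 1 to 2 against mxl-2. On daf-16 RNAi it gave 0 to 1 in mxl-2, 0 to 2 in the double mutant and 0 to 2 over strains. On pha-4 RNAi it gave 0 to 1 in eat-2, 0 to 0 in the double mutant and 0 to 1 over strains. Over foods it gave 0 to 4 for eat-2 against N2, 0 to 1 for mxl-2 against N2, and 3 to 4, 0 to 4 and 3 to 5 for the double mutant against N2, eat-2 and mxl-2. For the differences of the double mutant it gave 0 to 3 from eat-2 and 1 to 2 from mxl-2 on daf-16 RNAi, and 0 to 1 from mxl-2 on pha-4 RNAi.

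Replicate numbers did not pair the samples: deviations of same-numbered libraries correlated between −0.92 and 0.75, and no strain and food with 3 pairs had all of them above 0.1. With the replicate number as a block, 1 gene was called in eat-2 against N2 over foods and 0 in the double mutant against eat-2 over foods; the other counts moved by less than 1.5 times. In the 4 eat-2 libraries on EV and daf-16 RNAi alone, a pairing with crossed numbers, chosen after seeing the data, called 180 of 15268 genes and 1 of the 9, against 0 with the same numbers and 0 without a block. The search for sequence shared by the catalases or dismutases was not run. Groups of 2 or 3 libraries limit every test, and sod-5, with under 100 reads in each library, was also limited by depth.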
